A study of Mus musculus with 20 samples.

Results

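The genes described here are the 3 coactivators of the PGC-1 family (Ppargc1a, Ppargc1b and Pprc1) and 6 genes grouped with them. The 6 are the nuclear receptor Esrra, the transcription factor Nrf1, the mitochondrial DNA factor Tfam, the deacetylases Sirt1 and Sirt3, and the phosphatidate phosphatase Lpin2. All 9 were taken by name. They were found among the 26830 mouse genes with at least 1 count and among the 17573 abundant enough to be tested. Messenger RNA was taken at embryonic day 18.5 from the right lobe of the liver, in males of CD-1 IGS, an outbred mouse stock. The control group was 10 fetuses from 5 litters, and the other group was 10 fetuses from 5 litters under maternal nutrient restriction (MNR), with 2 littermates per litter. The fetuses were otherwise described alike. The sources used here do not say how far or when food was restricted. Litters carry the letters A to E in each group, and a shared letter does not mean a shared dam.

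PGC-1 coactivators do not bind DNA themselves. They are recruited by transcription factors and nuclear receptors, among them ERR alpha (encoded by Esrra), NRF1, HNF4 alpha, FOXO1 and the glucocorticoid receptor, and they bring in acetyltransferases and the Mediator complex. Through ERR alpha and NRF1 they raise genes of respiration and of mitochondrial DNA upkeep, and in liver PGC-1 alpha (Ppargc1a) is induced by glucagon and cAMP in fasting and supports gluconeogenesis and fatty acid oxidation. PGC-1 beta (Ppargc1b) is also known as a coactivator of SREBP in hepatic lipid synthesis, and PRC (Pprc1) as a growth-regulated relative.

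Deposited counts totalled 14925778 to 28016953 per fetus. The dam received the diet, so littermates were summed and each comparison is of 5 against 5 litters. Levels are CPM, the usual unit of counts scaled to library size, as mean ± SD over 5 litters. Each change is given as the log2 of the MNR level over the control level, with a standard error (SE). Adjusted p-values are from edgeR's quasi-likelihood test over all tested genes, with a threshold of 0.05. The median change of all tested genes was -0.00, and 49.4% of them had a positive change. Summed hepatocyte markers took 146000 to 175000 CPM in control fetuses and 142000 to 167000 CPM in MNR fetuses. Pancreas markers were above 100 CPM in control fetus B1 (371 CPM) and in MNR fetuses B1 (166 CPM) and E1 (121 CPM). The other control fetuses had 12.3 to 23.4 CPM and the other MNR fetuses 25.4 to 57.8 CPM. Every MNR fetus was thus above all control fetuses except B1, and the part of this difference in the results was not tested. Values without the 3 fetuses above 100 CPM are given below for Ppargc1a, Ppargc1b, Esrra and Sirt3. Without them the other 5 genes had adjusted p-values of 0.286 to 0.968.

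Ppargc1b rose in the MNR livers, and it was the only 1 of the 9 genes to pass the threshold. Its level was 2.55-fold that of the controls. Ppargc1a and Sirt3 were 1.72-fold and 1.23-fold the control level with adjusted p-values of 0.0904 and 0.0587. The third coactivator, Pprc1, did not share this direction, with 0.902 times the control level (adjusted p = 0.519). Over all genes, 73 or 0.415% passed the threshold with a higher level in MNR, and 117 or 0.666% passed in either direction. For Ppargc1b and Sirt3, 2 of the 9 genes, all litters of a group lay on the same side of the other group, as they did for 4.50% of all tested genes. An unadjusted p under 0.05 was found for 5 of the 9 genes and for 19.6% of all tested genes. DESeq2 on the same litters called 3 of the 9 genes and 6.62% of all genes. The 9 genes were chosen with earlier results of these data known, so their shares beside those of all genes test nothing about the set.

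**Figure D1:**
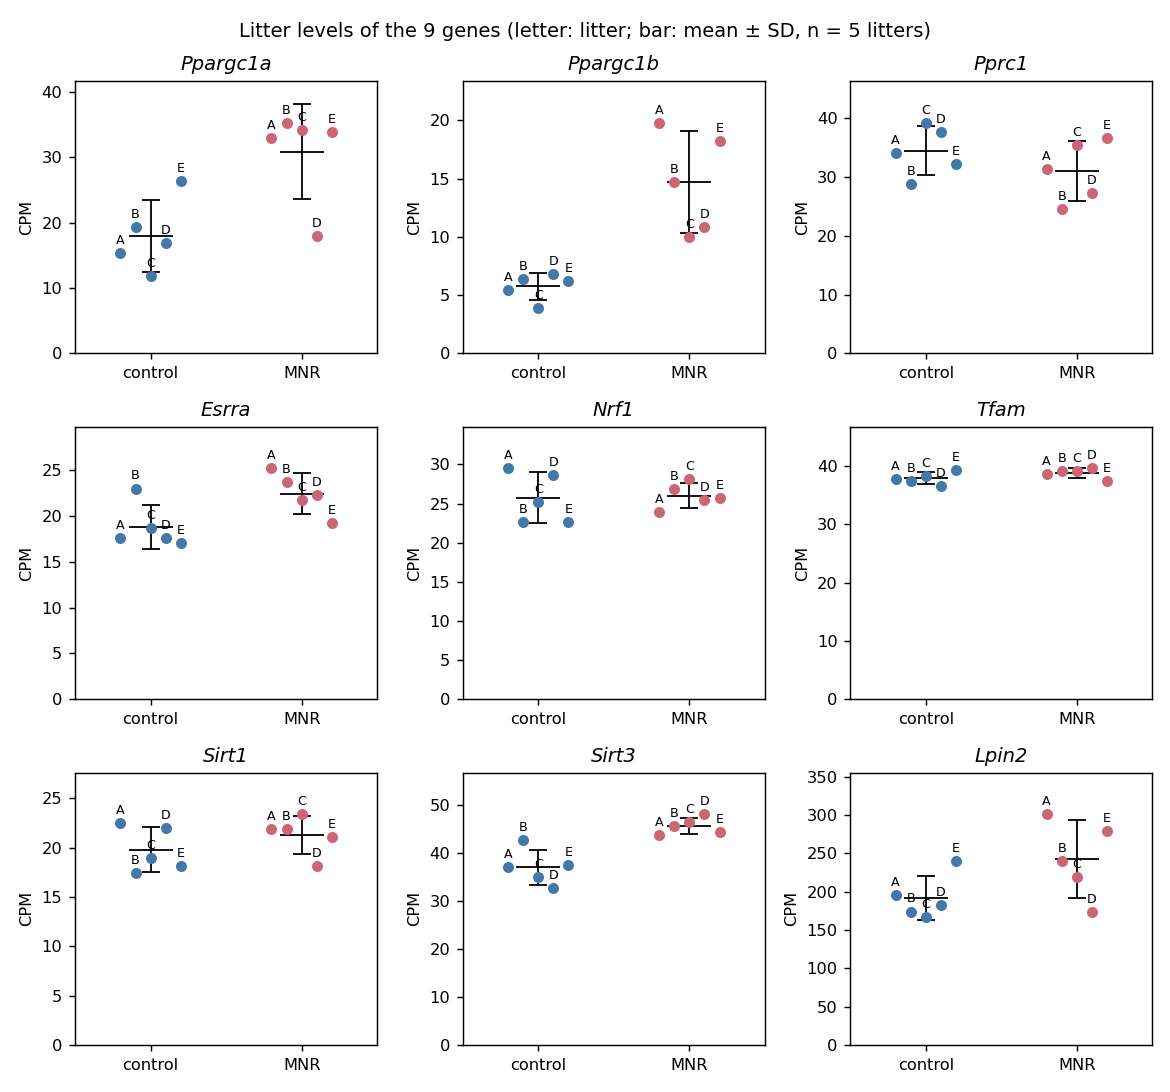
Level of each gene in CPM (vertical axes, each starting at 0) in the 5 control and 5 MNR litters; a point is a litter named by its letter, and bars are mean ± SD. The MNR litters lie above every control litter for Ppargc1b (9.99 to 19.8 against 3.88 to 6.83 CPM) and Sirt3 (43.7 to 48.1 against 32.8 to 42.7 CPM), and MNR litter D lies below the other MNR litters for Ppargc1a.

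**Figure D2:**
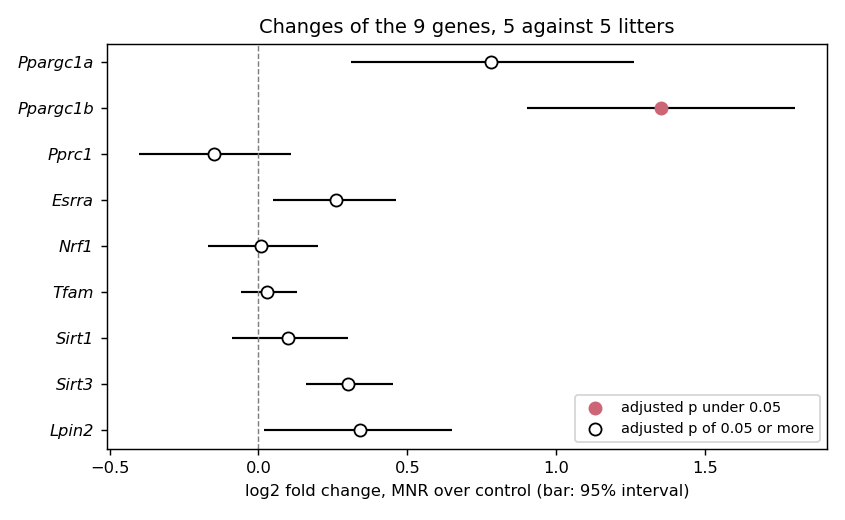
Log2 fold change of MNR over control for each gene (horizontal axis), with its 95% interval as a line; a filled point marks an adjusted p under 0.05. The interval of Ppargc1b runs from 0.90 to 1.80, and those of Pprc1, Nrf1, Tfam and Sirt1 include 0.

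Ppargc1a, the fasting-induced coactivator, lies on the minus strand of chromosome 5 (51845488 to 51958964, build mm9). Control litters A to E had 15.3, 19.3, 11.8, 16.9 and 26.4 CPM, and MNR litters A to E had 32.9, 35.3, 34.2, 18 and 33.8 CPM. MNR litters A, B, C and E stood above every control litter, while MNR litter D lay among the controls. The means were 17.9 ± 5.48 CPM in control and 30.9 ± 7.25 CPM in MNR. The log2 fold change was 0.78 (SE 0.22, 95% interval 0.31 to 1.26, adjusted p = 0.0904). Among single fetuses, 7 of the 10 MNR fetuses were above all 10 control fetuses. The exceptions were both fetuses of litter D (14.2 and 24.8 CPM) and fetus A1 (24.4 CPM), whose littermate A2 had the highest level of all, 41.4 CPM. DESeq2 on the same litters gave an adjusted p of 0.0101. Without MNR litter D the log2 fold change was 0.93 and the adjusted p was 0.0264. That setting also raised the calls over all genes, from 117 to 512. Leaving out any other litter gave an adjusted p of 0.0776 to 0.186, and fetus 1 of each litter alone gave 0.348. Without the 3 fetuses above 100 CPM of pancreas markers the log2 fold change was 0.71 (adjusted p = 0.116).

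The 4 annotated transcripts of Ppargc1a begin in 2 regions. Ppargc1a-001, which held 79.1% ± 2.49 of the gene's counts in control and 77.8% ± 1.22 in MNR litters, starts at position 51945160, and Ppargc1a-003 starts 13804 bases further upstream, at 51958964. The cAMP route to this gene acts at its promoter, and the annotated transcripts differ in their start. The 250 bases before each start are shown. The motifs were chosen after matches had been seen, and so were these 2 windows. Both are on the minus strand of mm9, written 5′ to 3′ and ending at the base before the start, and capitals mark a match to the cAMP response element, TGACGTCA.
Ppargc1a downstream start, chr5:51945161-51945410: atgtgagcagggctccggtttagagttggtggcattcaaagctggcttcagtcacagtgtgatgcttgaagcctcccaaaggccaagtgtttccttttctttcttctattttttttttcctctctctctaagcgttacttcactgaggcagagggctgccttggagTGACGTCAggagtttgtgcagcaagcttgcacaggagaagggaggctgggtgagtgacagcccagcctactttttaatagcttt
Ppargc1a upstream start, chr5:51958965-51959214: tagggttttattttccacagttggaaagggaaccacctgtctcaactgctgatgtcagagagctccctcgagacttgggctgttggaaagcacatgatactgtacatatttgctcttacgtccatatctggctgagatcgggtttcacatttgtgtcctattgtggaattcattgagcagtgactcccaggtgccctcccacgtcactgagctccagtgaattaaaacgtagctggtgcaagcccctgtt
The window before the downstream start holds 1 match, which begins 84 bases before the start, and the window before the upstream start holds none. In all, 6 motifs were searched on both strands: TGACGTCA, a variant of it (TGACGCAA), the ERR element TCAAGGTCA, the NRF1 site (GCGCA, then any base, then GCGC), the FOXO site GTAAACA and the E-box CACGTG. Of these, TGACGTCA alone matched in the windows shown. RefSeq's table of promoters (build GRCm38.p6) lists for Ppargc1a a window that shares sequence with the upstream one, with no TGACGTCA, so the match depends on which start is taken. Of all 32851 promoters in that table, 1.55% hold TGACGTCA in the same length, 0.438% TGACGCAA, 0.387% TCAAGGTCA, 3.74% the NRF1 site, 3.17% GTAAACA and 6.02% CACGTG. For the other genes described here that the table lists, the matches were GTAAACA in Lpin2, beginning 138 bases before the start, and CACGTG in Lpin2 (9 bases before) and Sirt1 (115 and 43 bases before). A match describes letters only and is no evidence of binding.

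Counts of the transcripts that begin at the upstream Ppargc1a start were few, 18 to 61 per litter. Their share of the gene's counts was 3.44% to 3.75% in control and 2.84% to 4.13% in MNR litters. The lowest share, in MNR litter E, has a 95% Wilson interval of 2.07% to 3.9%, which covers counting error only. The means were 3.61% ± 0.11 and 3.73% ± 0.509, and the difference of 0.12 points did not pass a two-sided exact permutation test over litters (p = 0.69). These transcripts share exons with the others, and reads in shared exons cannot be placed at either start. The shares are thus of deposited counts per transcript and do not measure how much each start was used.

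Ppargc1b, the PGC-1 beta coactivator, lies on the minus strand of chromosome 18 (61457790 to 61560085, mm9). Control litters A to E had 5.46, 6.34, 3.88, 6.83 and 6.24 CPM, and MNR litters had 19.8, 14.7, 9.99, 10.8 and 18.2 CPM. Every MNR litter was above every control litter, and litters A and E were the highest. From 5.75 ± 1.15 CPM in control the gene rose to 14.7 ± 4.36 CPM in MNR, a log2 fold change of 1.35 (SE 0.21, 95% interval 0.90 to 1.80, edgeR adjusted p = 0.0263). By p-value it ranked 20 among the 17573 genes. All 10 MNR fetuses, from 7.3 CPM in C2 to 26.1 CPM in A2, were above all 10 control fetuses, which ran from 3.7 to 7.21 CPM. The lowest MNR fetus, C2, was thus close to the highest control fetus, B2, while its littermate C1 had 12 CPM.

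The rise of Ppargc1b kept its size when single litters were left out, but not its adjusted p. Its log2 fold change ranged from 1.22 to 1.46 over all 24 alternative settings. The adjusted p lay above the threshold, at 0.0544 to 0.0799, without control litter A, C, D or E or without MNR litter A, B or E, and it was 0.215 with fetus 1 of each litter alone. Without the 3 fetuses above 100 CPM of pancreas markers the change was 1.28 (adjusted p = 0.0218). With the level of erythroid markers as a covariate the adjusted p was 0.0367.

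Pprc1, the PGC-1-related coactivator, lies on chromosome 19 (46119376 to 46147405, plus strand). Its levels in control litters A to E were 34.1, 28.9, 39.3, 37.7 and 32.3 CPM, and in MNR litters 31.4, 24.6, 35.5, 27.3 and 36.6 CPM. The groups overlapped, and litter B was the lowest of each. The log2 fold change was -0.15 (SE 0.12, 95% interval -0.40 to 0.11, adjusted p = 0.519), so a rise larger than 0.11 lies outside the interval. Its 177 exon bases shared with Ldb1 on the opposite strand make its counts uncertain if strand was not used in counting, and Ldb1 had a log2 fold change of 0.21 (adjusted p = 0.173).

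The 3 coactivators were compared with each other through the ratio of their counts in the same litter, which needs no scaling between libraries. Counts of Ppargc1b per count of Pprc1 were 0.0987 to 0.22 in control and 0.281 to 0.629 in MNR litters, with no overlap. The log2 ratio rose by 1.48 (two-sided exact permutation test, p = 0.00794, the smallest that 5 against 5 litters allow; adjusted over 3 ratios, 0.0238). Counts of Ppargc1a per count of Pprc1 were 0.299 to 0.818 in control and 0.659 to 1.43 in MNR litters. This log2 ratio rose by 0.95 (exact p = 0.0238, adjusted 0.0357), and the adjusted p lay above the threshold, at 0.0635 to 0.0714, without control litter A, C or D or without MNR litter A, B or E. The ratio of Ppargc1b to Ppargc1a was 0.236 to 0.403 in control and 0.292 to 0.602 in MNR litters. Its log2 difference of 0.54 did not pass (exact p = 0.0635, adjusted 0.0635). It passed without MNR litter C (0.71, adjusted p = 0.0238) and with fetus 1 of each litter alone (0.53, adjusted p = 0.0476), so whether Ppargc1b changed more than Ppargc1a depends on the litters and fetuses taken.

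Esrra encodes ERR alpha, the nuclear receptor through which PGC-1 reaches genes of respiration, and lies on chromosome 19 (6985467 to 6996303, minus strand). Control litters A to E had 17.6, 23, 18.7, 17.6 and 17 CPM, and MNR litters had 25.2, 23.7, 21.7, 22.3 and 19.2 CPM. Control litter B lay among the MNR litters, and the other control litters lay below every MNR litter. The log2 fold change was 0.26 (SE 0.09, 95% interval 0.05 to 0.46, adjusted p = 0.163). Without control litter B it was 0.34 (adjusted p = 0.0341), a setting that also raised the calls over all genes from 117 to 843. Leaving out any other litter gave an adjusted p of 0.161 to 0.328. Without the 3 fetuses above 100 CPM of pancreas markers the log2 fold change was 0.27 (adjusted p = 0.176). Without control fetus B1 alone it was 0.28 (adjusted p = 0.11). Control litter B holds the fetus with the most pancreas transcripts, B1, which had 24.3 CPM of Esrra beside 22.1 CPM in its littermate B2. Esrra shares 73 exon bases with Trmt112 on the opposite strand, which had a change of 0.02 (adjusted p = 0.865).

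Nrf1, the transcription factor of nuclear genes for mitochondrial proteins, lies on chromosome 6 (29997988 to 30103458, plus strand). Its control litters had 29.5, 22.6, 25.2, 28.7 and 22.7 CPM, and its MNR litters 23.9, 26.9, 28.1, 25.4 and 25.7 CPM. All MNR litters lay within the control range. The log2 fold change was 0.01 (SE 0.08, 95% interval -0.17 to 0.20, adjusted p = 0.949), and its sign turned in 9 of 24 alternative settings.

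Tfam packages mitochondrial DNA and starts its transcription, and is a classic target of NRF1 and PGC-1. It lies on chromosome 10 (70688212 to 70701028, minus strand). Control litters had 37.8, 37.5, 38.3, 36.6 and 39.3 CPM, and MNR litters had 38.7, 39.2, 39.1, 39.6 and 37.5 CPM. It had the narrowest spread between litters of the 9 genes, and the groups overlapped. Its log2 fold change of 0.03 had an SE of 0.04 and a 95% interval of -0.06 to 0.13 (adjusted p = 0.699).

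Sirt1, a nuclear deacetylase that acts on PGC-1 alpha, lies on chromosome 10 (62781753 to 62844452, minus strand). Levels were 22.5, 17.4, 19, 22 and 18.1 CPM in control litters and 21.9, 21.9, 23.4, 18.1 and 21.1 CPM in MNR litters. The groups overlapped, with a log2 fold change of 0.10 (SE 0.09, 95% interval -0.09 to 0.30, adjusted p = 0.568). Among single fetuses, control B1 had the lowest level, 14.7 CPM, and it also had the lowest level of Nrf1, 19.5 CPM.

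Sirt3, the main deacetylase inside mitochondria, lies on chromosome 7 (148049569 to 148068208, minus strand). Control litters had 37, 42.7, 35.1, 32.8 and 37.6 CPM, and MNR litters had 43.7, 45.7, 46.4, 48.1 and 44.4 CPM. Every MNR litter was above every control litter, the lowest of them by 1 CPM over control litter B. The log2 fold change was 0.30 (SE 0.07, 95% interval 0.16 to 0.45), and the adjusted p of 0.0587 missed the threshold. Without control litter B it was 0.36 (adjusted p = 0.0137), and with DESeq2 on the same litters 0.31 (adjusted p = 0.00293). The calls over all genes also rose without control litter B, from 117 to 843. Leaving out any other litter gave an adjusted p of 0.0587 to 0.139, and fetus 1 of each litter alone gave 0.41. Without the 3 fetuses above 100 CPM of pancreas markers the log2 fold change was 0.33 (adjusted p = 0.0551). Sirt3 shares exon bases with 2 genes of the opposite strand, 152 with Psmd13 and 61 with Ric8. Psmd13 had a log2 fold change of -0.22 (adjusted p = 0.0921) and Ric8 of -0.02 (adjusted p = 0.93), so neither had a positive change.

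Lpin2 encodes lipin 2, a liver lipin that turns phosphatidate into diacylglycerol and belongs to a family whose member lipin 1 is a nuclear partner of PGC-1 alpha. It lies on chromosome 17 (71531900 to 71599157, plus strand). Control litters had 196, 174, 167, 183 and 240 CPM, and MNR litters had 301, 240, 219, 173 and 279 CPM. MNR litter D was again the lowest of its group and lay among the controls, and control litter E was the highest of its own. The log2 fold change was 0.34 (SE 0.14, 95% interval 0.02 to 0.65, adjusted p = 0.228). MNR fetus A2 had 388 CPM and its littermate A1 214 CPM, the widest gap between littermates for this gene.

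The order of levels was read on a length scale, as CPM per kilobase of exon sequence of a gene. In control litters it ran from Sirt3 (23.6 ± 2.35 CPM per kilobase) and Lpin2 (15.7 ± 2.36) over Tfam (8.54 ± 0.224), Esrra (7.39 ± 0.958), Pprc1 (4.59 ± 0.557), Sirt1 (3.72 ± 0.438), Ppargc1a (2.7 ± 0.825) and Nrf1 (2.5 ± 0.315) to Ppargc1b (1.44 ± 0.289). The litter ranges of these neighbours overlapped for Tfam and Esrra, Pprc1 and Sirt1, Sirt1 and Ppargc1a, and Ppargc1a and Nrf1. In MNR litters the order was Sirt3 (29.1 ± 1.11 CPM per kilobase), Lpin2 (19.8 ± 4.09), Esrra (8.84 ± 0.877), Tfam (8.74 ± 0.186), Ppargc1a (4.65 ± 1.09), Pprc1 (4.14 ± 0.686), Sirt1 (3.99 ± 0.368), Ppargc1b (3.68 ± 1.09) and Nrf1 (2.53 ± 0.154). Esrra and Tfam overlapped there, and so did each neighbour from Ppargc1a down. Exon length here is that of all annotated transcripts together, which places genes low whose transcripts each carry a part of it, above all Nrf1 (10282 bases, against 3584 in Nrf1-001) and Lpin2 (12233 bases, against 5640 in Lpin2-001). With the mean transcript length weighted by counts in its place, Lpin2 came first in control litters (45.5 ± 6.87 CPM per kilobase), then Sirt3 (30.1 ± 2.98), Tfam (12.4 ± 0.327), Esrra (10.5 ± 1.36), Nrf1 (10 ± 1.27), Pprc1 (7.89 ± 0.956), Sirt1 (5.38 ± 0.628), Ppargc1a (3.22 ± 0.98) and Ppargc1b (1.64 ± 0.329). The places of Nrf1 and of Lpin2 thus depend on the length used. On this second scale Ppargc1b was the lowest in MNR litters too, at 4.18 ± 1.24, with a range that overlapped that of Ppargc1a (5.54 ± 1.3).

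The proportions of a gene's transcripts were tested with little power. Of 76 annotated transcripts with a count, 35 held at least 5% of their gene's counts and were tested, in all 9 genes. Of these shares 0 passed a two-sided exact permutation test over litters with adjustment over the 35 (lowest adjusted p = 0.328), and 1 had an unadjusted p under 0.05. With 5 against 5 litters a single share cannot reach an adjusted p below 0.278, and 6 shares at the smallest exact p would be needed to pass, so 0 calls say little. The share with the smallest p was Esrra-005, with 13.6% ± 1.09 in control and 12.1% ± 0.48 in MNR litters (exact p = 0.0159). The largest difference, 2.78 points, was for Ppargc1b-001, with 55% ± 2.66 in control and 57.8% ± 1.99 in MNR litters (exact p = 0.0873), beside Ppargc1b-002 with 44.7% ± 2.74 and 42.2% ± 1.92. Where transcripts share nearly all exon bases, the deposited counts were divided between them as by chance (chi-square over degrees of freedom 0.998 for 1691 such pairs), so shares of near-identical transcripts carry little information.

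Fetuses differed within the groups as well, and some of the genes varied together. After each group's mean was subtracted, log2 CPM of Nrf1 and Sirt1 had a Pearson correlation of 0.85 over the 20 fetuses. Control B1, the fetus with the most pancreas transcripts (371 CPM), was the lowest for both genes, and the correlation was not computed without it. Ppargc1a and Lpin2 had 0.74, Ppargc1b and Lpin2 0.65, and Ppargc1a and Ppargc1b 0.61. Esrra and Sirt3 had 0.45, and Tfam had no correlation above 0.30 with any of the other 8 genes. These are descriptions over fetuses of which each shares its litter with another.

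**Figure D3:**
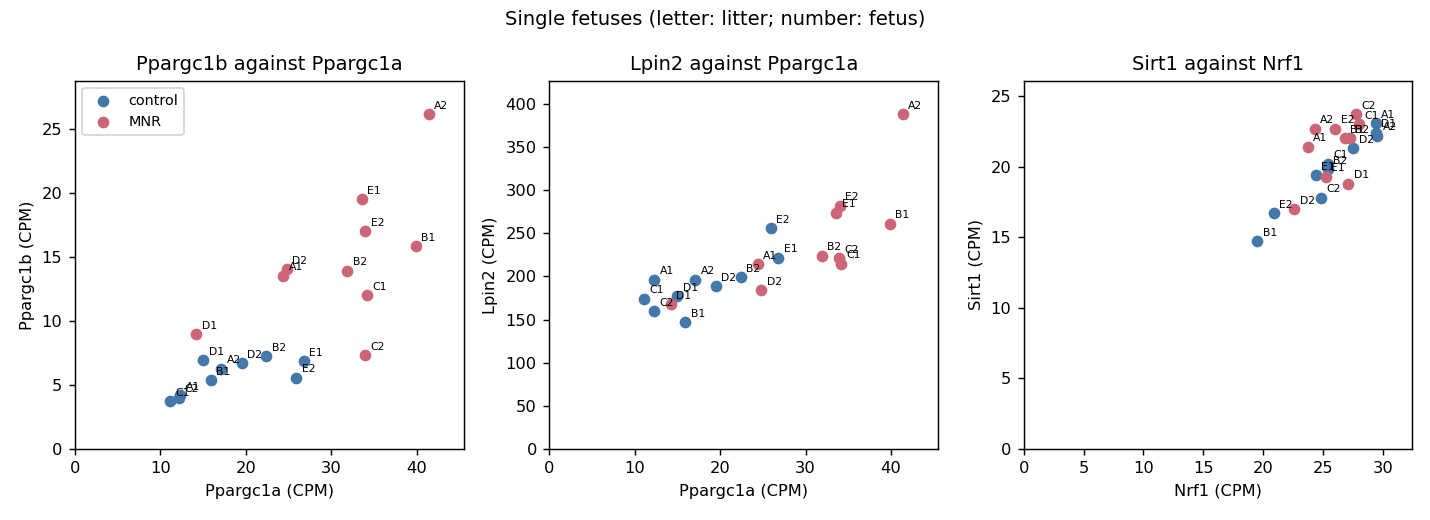
CPM of 2 genes in each of the 20 fetuses (letter: litter, number: fetus), for Ppargc1b against Ppargc1a, Lpin2 against Ppargc1a, and Sirt1 against Nrf1; axes start at 0. MNR fetus A2 is highest for Ppargc1a (41.4 CPM), Ppargc1b (26.1 CPM) and Lpin2 (388 CPM), and control fetus B1 is lowest for Nrf1 and Sirt1.

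The genes whose levels followed Ppargc1a most closely on the same measure, among 14889 genes with a mean of at least 1 CPM, were D230025D16Rik (0.90), Pdk4 (0.89), Rabgef1 (0.87), Lpin1 (0.87) and Cblb (0.85). Pdk4, the kinase that switches off pyruvate dehydrogenase, had a log2 fold change of 0.76 (adjusted p = 0.0908). Rabgef1, an exchange factor of endosomal RAB5, rose by 0.48 (edgeR adjusted p = 0.0419). Lpin1, the lipin that acts with PGC-1 alpha, had 0.74 (adjusted p = 0.106). For Ppargc1b they were Pptc7 (0.82), Fam117b (0.81), Phb (0.81), Rab30 (0.80) and Tbc1d15 (0.80). Pptc7, a mitochondrial phosphatase, rose by 0.72 (adjusted p = 0.034) and Fam117b by 0.41 (adjusted p = 0.0441). Leaving out any of 5 litters (A, C and E of the controls, B and E of the MNR group) left no gene past the threshold, these 3 and Sik1 included. Phb, prohibitin, followed Ppargc1b between fetuses but had a group change of -0.03 (adjusted p = 0.824).

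Other genes of the pathway were taken from 7 lists, and 1 gene in them passed the threshold. Over all tested genes, 0.666% passed, 19.6% had an unadjusted p under 0.05 and 49.4% had a positive change. No list was tested as a set. Among the partner receptors and factors, 0 of 24 passed, with 16 positive changes and a median of 0.14. At an unadjusted p under 0.05, 7 were higher and 4 lower, and DESeq2 called 8 of 24 against 6.62% of all genes. Foxo1, the fasting factor that works with PGC-1 alpha in gluconeogenesis, went from 55.6 ± 5.84 to 75.9 ± 10.6 CPM (log2 fold change 0.45, adjusted p = 0.0587). Rxra, the shared partner of many nuclear receptors, went from 219 ± 18.6 to 261 ± 9.06 CPM without overlap of litters (0.26, adjusted p = 0.0785). In all, 4 of 24 genes had no such overlap, beside 4.50% of all tested genes. The others were Ppara (0.19, adjusted p = 0.121), Yy1 (0.07, adjusted p = 0.374) and, lower in MNR, Ppard (-0.32, adjusted p = 0.101). Nr3c1, the glucocorticoid receptor, had 0.35 and Mef2a, a factor that acts at the Ppargc1a gene, had 0.29 (adjusted p = 0.0806 for each).

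Of the cofactors, modifiers and antagonists, 1 of 25 passed, with a list median of 0.03 and 16 positive changes. At an unadjusted p under 0.05, 7 were higher and 1 lower, and DESeq2 called 3. Over all tested genes, 19.6% had such a p and DESeq2 called 6.62%. The gene past the threshold was Sik1, a cAMP-induced kinase that restrains CREB coactivators, which rose from 47.5 ± 2.55 to 61.5 ± 5.62 CPM (log2 fold change 0.37, SE 0.07, edgeR adjusted p = 0.0416), with no overlap of litters. The acetyltransferases Crebbp and Ep300 had 0.27 (adjusted p = 0.0731) and 0.17 (adjusted p = 0.139), and the coactivator Ncoa3 had 0.22 (adjusted p = 0.115). Creb1 and Crtc2, which carry the cAMP signal to the Ppargc1a promoter, had 0.03 and 0.08.

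Of the genes downstream of the coactivators, none passed the threshold in edgeR. Over all tested genes, 19.6% had an unadjusted p under 0.05 and DESeq2 called 6.62%. In the list of mitochondrial DNA transcription, replication and import, 0 of 22 genes passed (median 0.05), with 2 higher and 1 lower at an unadjusted p under 0.05 and 2 called by DESeq2. Its smallest p-values were those of the helicase Peo1 (log2 fold change 0.27, adjusted p = 0.0904) and of Ssbp1, the mitochondrial single-strand binding protein (-0.21, adjusted p = 0.108), with Polg (0.18) and Tfb2m (0.23) next. Of the oxidative targets of ERR alpha and PGC-1, 0 of 23 passed (median 0.04), with 5 higher and 2 lower at an unadjusted p under 0.05 and 4 called by DESeq2. Cytochrome c, Cycs, went from 57.8 ± 5.38 to 47.2 ± 1.7 CPM (-0.29, adjusted p = 0.0587), and citrate synthase, Cs, from 122 ± 8.88 to 101 ± 3.32 CPM (-0.26, adjusted p = 0.0587). For both, every MNR litter was below every control litter, the reverse of Ppargc1b. The kinase Pdk4 had 0.76 (adjusted p = 0.0908). The carnitine acyltransferase Cpt1a went from 185 ± 29.7 to 248 ± 30.4 CPM (0.42, adjusted p = 0.0987), with every MNR litter above every control litter. Cycs, Cs and Cpt1a were the 3 of 23 genes without overlap of litters, beside 4.50% of all tested genes.

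The hepatic targets of PGC-1 in glucose, heme and bile acid metabolism had the highest list median, 0.30, with 13 of 18 changes positive and 0 past the threshold. Of these 18 genes, 5 were higher at an unadjusted p under 0.05, and DESeq2 called 3. Over all tested genes, 49.4% had a positive change, 19.6% had such a p in either direction and DESeq2 called 6.62%. Angptl4, a secreted inhibitor of lipoprotein lipase, went from 72.5 ± 15.2 to 124 ± 30.3 CPM (log2 fold change 0.77, adjusted p = 0.0664). The glucose 6-phosphate transporter Slc37a4 had 0.36 (adjusted p = 0.0904), the heme synthesis enzyme Alas1 0.39 (adjusted p = 0.115) and the selenium carrier Sepp1 0.18 (adjusted p = 0.209). The gluconeogenic enzymes Pck1 and G6pc varied widely between litters, with 0.63 (SE 0.49) and 0.31 (SE 0.28).

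Among other sirtuins and genes of NAD supply, 0 of 19 passed (median 0.07). At an unadjusted p under 0.05, 3 were higher and 2 lower, and DESeq2 called 1. Over all tested genes, 19.6% had such a p and DESeq2 called 6.62%. Afmid, a kynurenine formamidase, had a log2 fold change of 0.31 (adjusted p = 0.0587), the mitochondrial desuccinylase Sirt5 had 0.27 (adjusted p = 0.15), Nampt had 0.23 (adjusted p = 0.204) and Sirt7 had -0.18 (adjusted p = 0.211). Among other lipins and glycerolipid genes, 0 of 14 passed (median 0.09), with 4 higher and 1 lower at an unadjusted p under 0.05 and 2 called by DESeq2. Lpin1 went from 356 ± 75 to 593 ± 181 CPM, Lpin3 had -0.02 (adjusted p = 0.954), and the CDP-diacylglycerol synthases Cds2 and Cds1 had 0.21 (adjusted p = 0.0802) and 0.65 (adjusted p = 0.123). Ppap2b, another phosphatidate phosphatase, had 0.19 (adjusted p = 0.207).

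**Figure D4:**
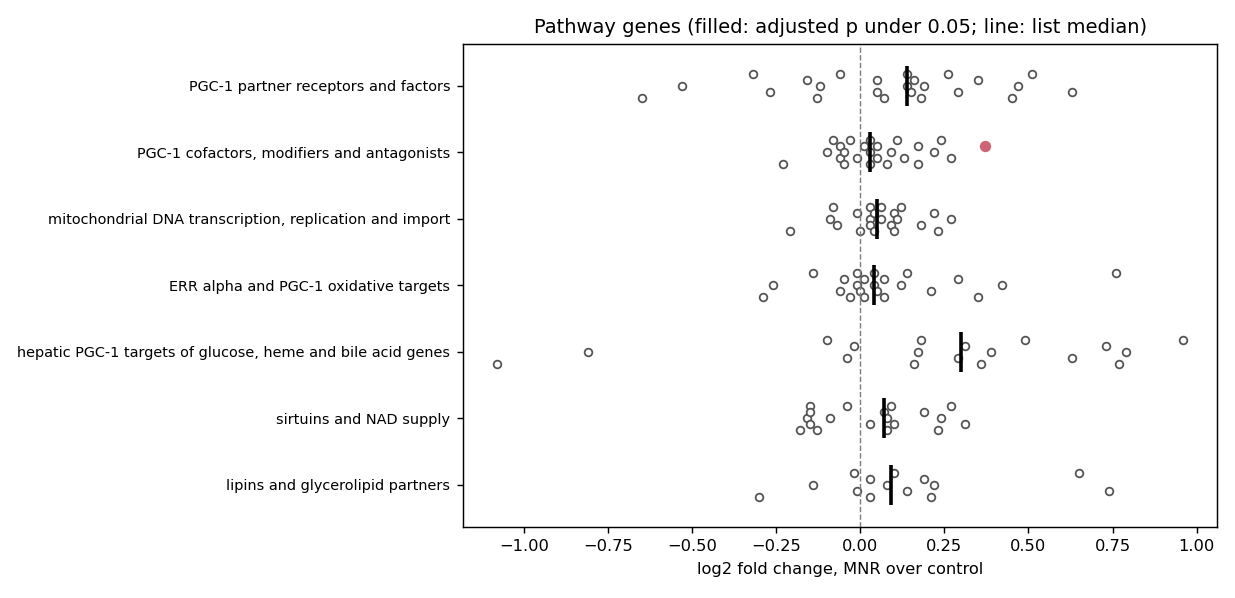
Log2 fold change of MNR over control (horizontal axis) for each tested gene of the 7 pathway lists; a point is a gene, a vertical bar is the list's median, and a filled point has an adjusted p under 0.05. The medians run from 0.03 to 0.30, and the filled point is Sik1 at 0.37.

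Marker genes of some other cell types also differed in direction between the groups, and their part in these results was not tested. In these bulk samples fewer cells of a type and less RNA per cell cannot be told apart. Beside 49.4% positive changes among all genes, all 10 neutrophil markers (median log2 fold change 0.26) and all 8 megakaryocyte markers (0.25) had positive changes, and 10 of 11 erythroid markers had negative ones (-0.11). In edgeR 0 genes of these lists passed the threshold, with an unadjusted p under 0.05 for 6 neutrophil, 6 megakaryocyte and 0 erythroid markers; DESeq2 called 2, 3 and 0 of them. Over all genes these shares were 19.6% at an unadjusted p and 6.62% in DESeq2. Of the stellate and mesenchymal markers 7 of 8 had negative changes (median -0.23), with 0 past the threshold in edgeR, 3 lower at an unadjusted p under 0.05 and 1 called by DESeq2. Summed over a list, neutrophil markers took 1840 to 3110 CPM in control and 2100 to 3830 CPM in MNR fetuses, megakaryocyte markers 236 to 367 and 280 to 422 CPM, and erythroid markers 17200 to 38200 and 20400 to 32800 CPM. Hepatocyte markers had a median change of 0.08, with 7 positive and 3 negative changes. The macrophage (7 positive, 3 negative), endothelial (3 positive, 5 negative) and bile duct lists (3 positive, 2 negative) were mixed as well. Brown fat and muscle are tissues rich in Ppargc1a. Of the brown fat markers, Cidea, Elovl3, Adipoq and Plin1 were at most 0.206 CPM in any fetus. Only Fabp4 was abundant (18.6 to 56 CPM, group change -0.01), and Ucp1 was not found by name among the counted genes. Muscle markers summed to 5.48 to 36.8 CPM in control and 5.23 to 18.1 CPM in MNR fetuses, and the changes of all 5 tested were at or below 0.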

How the data were processed

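RNA of 20 fetal livers was analysed. Per the labels' protocols, libraries were strand-preserving and made from polyadenylated RNA. The deposited values are raw whole-number counts per Ensembl transcript, with transcripts at 0 left unlisted. The submitters' processing notes name build mm9 and the tools Bowtie2, FastQC, edgeR and DESeq2. The sources used here do not say how reads were counted or whether strand was used. A deposited gene table was not used, because it equals the summed counts for only 8.52% to 9.66% of genes.

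Counts were summed to genes with GENCODE M1 on NCBIM37 (0.0788% to 0.154% of a fetus's counts matched no gene), then over the 2 littermates. The test was edgeR 4.0.16 (quasi-likelihood, two-sided, Benjamini-Hochberg, threshold 0.05) on genes kept by filterByExpr with a minimum count of 10, after TMM scaling; limma 3.58.1 and DESeq2 1.42.0 served as alternatives, in R 4.3.3. The SE is the log2 fold change over the square root of F, and 95% intervals use edgeR's moderated degrees of freedom. CPM of single fetuses were scaled separately. Nothing in the labels says how far littermates or litters are independent, so p-values measure the spread between these litters. The procedure was tested on simulated data.

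The 9 genes and all lists were chosen with earlier results of these data known. All 9 genes are named, with the 4 genes of smallest p in each list, and 5 genes of highest correlation with Ppargc1a and Ppargc1b (prior count 2). Ppara, Yy1, Ppard, Pck1, G6pc, Creb1, Crtc2, Lpin3, Fabp4, the other brown fat markers and the overlapping genes were named after their values were seen. The RefSeq promoter table matched 8 of the 9 genes. The motifs and the Ppargc1a windows to print were chosen after matches had been seen. Alternatives were other scalings, filters, tools and units of replication, the litter letter as a block, erythroid markers as a covariate and leaving out each litter. Leaving out fetuses high in pancreas transcripts, with either of 2 limits, and the second length scale were added after seeing the data.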

Additional observations from a re-analysis of the deposited data

Results flagged for a closer look

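In 2 of 18 groups of 5 litters a single litter stood apart from the other 4; chance alone sets a litter apart in about 1 of 20 such groups. MNR litter D had 18 CPM of Ppargc1a, and the other MNR litters had 32.9 to 35.3 CPM (gap over range 0.861). Control litter B had 23 CPM of Esrra, and the other control litters had 17 to 18.7 CPM (gap over range 0.717).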

How the results depend on the processing

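Of the 9 genes, all except Nrf1 kept their direction in all 24 alternative settings; Nrf1 had -0.02 with upper-quartile scaling, -0.0002 with library totals, -0.01 with fetus 2 alone, -0.01 and -0.02 without pancreas-rich fetuses, and -0.03 to 0.07 with a litter left out. Ppargc1b passed in 16 settings, Ppargc1a and Sirt3 in 5, Esrra in 2 and the rest in 0. Against 1 of the 9 genes in the main comparison, DESeq2 called 3, limma-voom with a litter effect 3, separate fetuses 4, fetus 1 alone 0, fetus 2 alone 3, and leaving out a litter 0 to 3. Against 117 of all genes, the counts were 1163, 1084, 2301, 0 (1699 at unadjusted p under 0.05) and 499, and 0 to 843 with a litter left out (0 without control A, C or E or MNR B or E). Upper-quartile scaling called 178 genes, 38.2% of them higher in MNR against 62.4%. Leaving out fetuses high in pancreas transcripts gave 215 genes with a limit of 100 CPM, which removes 3 fetuses. It gave 296 with the limit tried first, 10 times the median, which removes control B1 alone. The cause of these shifts was not tested. DESeq2 called 8 partner, 3 cofactor, 2 mitochondrial DNA, 4 oxidative, 3 hepatic, 1 sirtuin and 2 lipin list genes, and upper-quartile scaling 2 oxidative ones. The ratio of Ppargc1b to Ppargc1a passed with fetus 1 alone (0.53) and without MNR C (0.71), and ranged from 0.42 to 0.71 with a litter left out; that of Ppargc1a to Pprc1 ranged from 0.76 to 1.12. With the litter letter as a replicate block, edgeR called 232 genes; permuted within letters, where p cannot go below 0.0625, the ratios to Pprc1 of 1.48 and 0.95 had an adjusted p of 0.0938. Same-lettered litters correlated at -0.01 to 0.18 after each group's mean was subtracted. Litters of different letters were not compared, so these values cannot decide whether the letter marks a pairing. Shares of counts per transcript gave 0 calls under each alternative, which says nothing of stability: with a litter left out, 12 of the 35 shares would have to reach the smallest exact p.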
